A study of Mus musculus with 28 samples.

Results

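The peaks described here were 696 promoter peaks of open chromatin that had fewer counts in hair follicle stem cells of old mice than in those of young mice. A peak belonged to them if the authors' deposited ATAC-seq table annotates it within 1 kb of a transcription start and if its mean count over the 4 old libraries was below that over the 4 young libraries, without any scaling. They were 696 of 738 promoter peaks and of 7849 peaks of any annotation in that table. The other 42 promoter peaks had more counts in old cells. Only peaks with a log2 ratio of 0.50 or more in size and a −log10 p-value of 2.00 or more are listed there. Promoter peaks with smaller differences between the ages are thus absent, and 696 of 738 is no share of all open promoters. The peaks were thus chosen by their ATAC-seq counts in the same 8 libraries that any comparison of age would use, so the drop in ATAC-seq counts is given as a description and was not tested.

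Hair follicle stem cells were freshly sorted from trypsin-treated mouse skin as cells positive for Cd34 and α6 integrin, per the labels' protocols. All mice carried the strain label 132-C67BL/6J, with no genetic alteration or treatment named. Young mice were 6 months and old mice 24 months old, with 4 ATAC-seq, 3 RNA, 3 H3K27me3, 2 H3K4me3 and 2 Pol2 libraries at each age. The ChIP-seq labels give young or old without months, and the age of their samples is taken from the ATAC-seq and RNA labels. Sorted cells are a bulk sample, so fewer cells of a type and less signal per cell cannot be told apart. Markers of other cell types of skin had 52 listed ATAC-seq peaks, of which 6 (11.5%) belonged to these promoters, against 8.87% of all listed peaks. They were at Lef1, with 2 of the 14 listed peaks of the hair shaft and differentiating hair markers, Lor (1 of 7 for interfollicular epidermis), Prdm1 and Elovl3 (2 of 13 for sebaceous gland) and Acta2 (1 of 9 for endothelium, muscle and glia). The fibroblast, melanocyte and immune markers had 9 listed peaks and 0 of these promoters. Of 55 listed peaks at markers of the stem cells themselves 2 (3.64%) were among them, both at Hmga2. Genes of keratinocyte differentiation that are on none of these lists, such as Crnn and Sprr1a, also had such peaks. The family of keratinocyte differentiation and Skint genes, picked after the values were seen, had 16 of 37 listed peaks among these promoters (43.2%). Lor is counted in that family too. The part of other cell types in the counts was not tested.

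ATAC-seq counts fragments cut out by a transposase where DNA is free of nucleosomes, and active promoters are usually such places. H3K4me3 is a histone mark of promoters that are active or ready for activity, and H3K27me3 is the mark that Polycomb complexes leave on silent genes, above all on genes of development. Promoters that carry both marks are called bivalent, and the title of the series concerns the accessibility of such promoters in old stem cells. Pol2 is RNA polymerase II, the enzyme that transcribes genes.

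The promoters below show the kinds of sequence under these peaks. Each is the 250 bases before the start of transcription in RefSeq (GRCm38.p6), written 5′ to 3′ on the strand of the gene, with each CG dinucleotide in capitals. Sox21 (chr14:118237031-118237280, minus strand) encodes a transcription factor of hair and nervous system, and Sp8 (chr12:118846983-118847232, plus strand) encodes a zinc finger factor of limb and brain development. Their ATAC-seq peaks overlapped peaks of both histone marks. Prune2 (chr19:16955868-16956117, plus strand) had H3K27me3 alone, and Pdlim1 (chr19:40271617-40271866, minus strand), whose product binds the actin cytoskeleton, had H3K4me3 alone. St8sia4 (chr1:95667595-95667844, minus strand), the gene of an enzyme that makes polysialic acid, and Skint3 (chr4:112231995-112232244, plus strand), of the Skint family that supports T cells in skin, had neither mark. Skint3 was added after its values were seen, because its mRNA was lower in old cells.
Sox21: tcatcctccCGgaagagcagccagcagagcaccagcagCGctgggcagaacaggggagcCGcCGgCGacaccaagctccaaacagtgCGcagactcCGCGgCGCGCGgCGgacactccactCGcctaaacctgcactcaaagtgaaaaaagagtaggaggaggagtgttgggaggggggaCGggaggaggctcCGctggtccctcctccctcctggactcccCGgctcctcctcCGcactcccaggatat
Sp8: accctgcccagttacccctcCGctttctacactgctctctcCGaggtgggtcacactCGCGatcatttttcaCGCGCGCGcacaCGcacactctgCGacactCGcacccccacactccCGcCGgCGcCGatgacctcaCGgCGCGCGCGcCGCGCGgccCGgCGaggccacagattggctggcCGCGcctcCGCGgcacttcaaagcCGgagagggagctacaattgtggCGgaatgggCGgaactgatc
Prune2: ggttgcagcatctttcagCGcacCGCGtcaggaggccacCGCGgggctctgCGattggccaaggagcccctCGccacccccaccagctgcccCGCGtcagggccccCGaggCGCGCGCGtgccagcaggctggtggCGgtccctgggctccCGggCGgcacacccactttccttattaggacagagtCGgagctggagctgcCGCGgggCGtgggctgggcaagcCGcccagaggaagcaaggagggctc
Pdlim1: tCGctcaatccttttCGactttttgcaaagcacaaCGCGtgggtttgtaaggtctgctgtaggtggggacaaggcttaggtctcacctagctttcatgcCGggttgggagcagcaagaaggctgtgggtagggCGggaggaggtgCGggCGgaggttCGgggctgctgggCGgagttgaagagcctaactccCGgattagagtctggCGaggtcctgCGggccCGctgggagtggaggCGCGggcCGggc
St8sia4: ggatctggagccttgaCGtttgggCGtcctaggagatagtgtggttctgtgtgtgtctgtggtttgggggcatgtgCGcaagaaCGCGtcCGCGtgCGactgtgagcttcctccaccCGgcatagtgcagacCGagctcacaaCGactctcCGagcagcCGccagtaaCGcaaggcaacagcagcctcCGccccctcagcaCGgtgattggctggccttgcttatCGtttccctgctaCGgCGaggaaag
Skint3: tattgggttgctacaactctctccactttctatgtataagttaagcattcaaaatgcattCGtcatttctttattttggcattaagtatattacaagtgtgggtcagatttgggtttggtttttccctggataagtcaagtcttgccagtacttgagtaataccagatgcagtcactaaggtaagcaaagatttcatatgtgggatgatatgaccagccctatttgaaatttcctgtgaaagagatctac
The Sp8 stretch holds 32 CG dinucleotides, the Prune2 stretch 22, St8sia4 19, Sox21 and Pdlim1 17 each, and Skint3 1. The upstream stretches of Sox21, Sp8, Pdlim1 and St8sia4 lie wholly inside their ATAC-seq peaks, those of Prune2 and Skint3 in large part, with 167 and 244 of 250 bases.

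The 696 peaks were annotated to 672 genes. There were 649 genes with 1 peak, 22 with 2 peaks, and Sdr16c5, a retinol dehydrogenase gene of epithelia, with 3. A start of transcription lay inside 414 of the peaks, while 102 lay upstream and 180 downstream of it. The median peak was 550 bases wide and had a mean of 325 counts in young and 203 in old libraries. The log2 ratio of old to young means had a median of −0.63 (quartiles −0.77 and −0.55) and reached −1.62, against a median of −0.64 over all listed peaks. In 51 peaks the ratio was below −1. The table lists no peak with a ratio between −0.50 and 0.50. The peaks just inside the rule were at Arhgap6, Vsnl1 and Camkv, each with a ratio of −0.50, and the nearest on the other side were at Mbnl2, BC051142 and Piwil2, each with 0.51.

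The unscaled counts of the single libraries were fully separated by age at 50.4% of these peaks, which were chosen by the same counts. With equal totals this held at 20 peaks (2.87%). Relative to the young mean of the same peak, the median peak had 0.942, 1.01, 1.00 and 1.03 in young replicates 1 to 4 and 0.678, 0.615, 0.659 and 0.565 in old replicates 1 to 4. Old replicate 4 was the lowest old library in 296 of the 696 peaks. Its total over all listed peaks was also the lowest, at 1572998 counts. These peaks held 12.0% of that total, within the 10.7% to 12.1% of the old libraries. Every old library was below every young library in 351 peaks (50.4%), against 35.8% of all listed peaks and 40.7% of the listed peaks outside promoters that had fewer counts in old cells. Ages of single genes are given below as overlapping or not by unscaled counts, unless equal totals are named. Only the 20 peaks above kept the ages apart with equal totals.

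**Figure D1:**
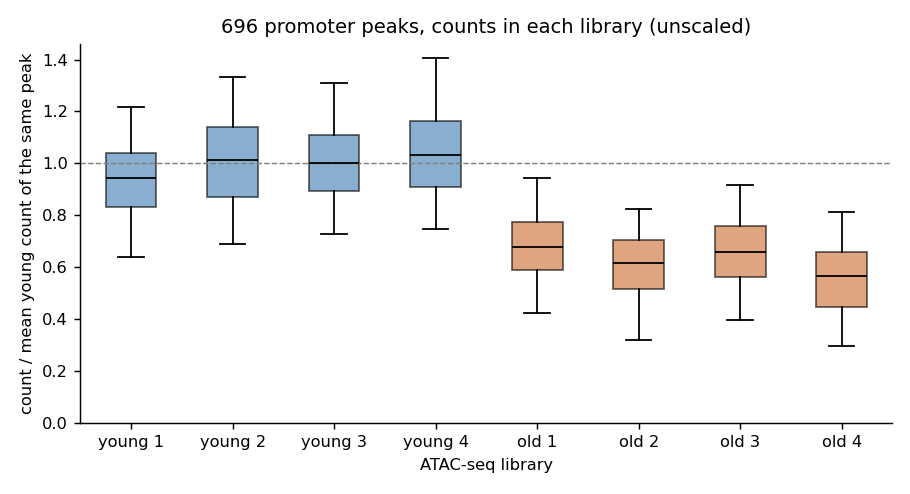
ATAC-seq counts of the 696 peaks in each of the 8 libraries (x axis), as a ratio to the mean young count of the same peak (y axis, unscaled); boxes show the quartiles with the median and whiskers the 5th and 95th percentiles over peaks. The medians of the 4 old libraries lie between 0.565 and 0.678, below the 4 young medians of 0.942 to 1.03.

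The total over listed peaks was itself lower in every old library, at 1572998 to 1946804 counts against 2456110 to 2773284 in the young ones, and these totals are not library depths. With counts scaled to equal totals, the median ratio of the 696 peaks became −0.11, and that of all listed peaks moved from −0.64 to −0.12. Then 628 of the 696 (90.2%) still had a lower old mean, against 80.0% of all listed peaks, which include those with more counts in old cells, and 93.4% of the peaks outside promoters that had fewer counts. Only 20 (2.87%) had every old library below every young one, against 2.90% of all listed peaks. With TMM scaling, which recentres on the typical listed peak, 425 (61.1%) remained lower, against 60.4% of all listed peaks and 71.3% of the peaks outside promoters that had fewer counts. The median drop of these promoters was close to that of all listed peaks. Only ratios of 0.50 or more in size are listed, which bounds both medians, so their likeness says little. Which part of the drop reflects depth cannot be told apart from these counts.

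The largest drops were at genes of varied function, and most of these peaks had few counts. St8sia4 had 260, 220, 323 and 449 counts in the young libraries and 94, 147, 126 and 41 in the old ones, a log2 ratio of −1.62. Creld1, the gene of a membrane protein with EGF-like repeats, had 541, 452, 433 and 625 against 283, 209, 182 and 111, a ratio of −1.39. In both genes all old libraries lay below all young ones, and neither peak overlapped a peak of a histone mark. Prune2 had 95, 92, 91 and 99 counts in young and 12, 30, 44 and 42 in old libraries (ratio −1.56). Lmtk3, which encodes a membrane kinase, had 137, 197, 165 and 124 against 51, 71, 57 and 38 (ratio −1.52). Cacna2d3, the gene of a calcium channel subunit, had 270, 210, 479 and 605 against 175, 153, 99 and 121 (ratio −1.51). The ages did not overlap at these 3 peaks either, although the young libraries of Cacna2d3 differed by more than the gap between the ages. Ptger3, a prostaglandin E receptor gene, Dpf1, a gene of a PHD finger protein, and Amer2, which encodes a regulator of Wnt signalling, followed with ratios of −1.42, −1.38 and −1.30.

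With the totals made equal, the ages stayed apart at 4 of these 8 peaks and overlapped at Cacna2d3, Ptger3, Dpf1 and Amer2. The 20 peaks whose ages stayed apart included St8sia4 (ratio −1.11 with equal totals), Lmtk3 (−1.02) and Creld1 (−0.89), and also Prune2. Among developmental genes they included a peak of Foxa1, a forkhead factor gene, at chromosome 12, 57546651 to 57546950. It had 156, 106, 142 and 101 counts in young and 45, 66, 45 and 51 in old libraries, a ratio of −1.29 unscaled and −0.77 with equal totals. The homeobox gene Alx1 had 98, 128, 96 and 146 against 55, 67, 67 and 22 (−1.15 and −0.65). Zim1, an imprinted gene near Peg3, had 826, 899, 844 and 759 against 438, 456, 430 and 397 (−0.95 and −0.43). The old libraries of Zim1 differed little from one another and were all far below the young ones. Of these 20 peaks, 5 overlapped both histone marks, 6 H3K4me3 alone, 6 H3K27me3 alone and 3 neither. Over all 696 peaks the shares of these classes were 26.7%, 42.4%, 11.4% and 19.5% in the same order, a difference that was not tested. The 20 peaks were 2.87% of the 696, against 2.90% of all listed peaks that stayed apart.

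The 5 promoters with the most counts had ratios between −0.61 and −0.52, all smaller in size than the median of −0.63 over the 696 peaks. Pdlim1 had 3764, 4475, 3610 and 3448 counts in young and 3029, 2543, 2837 and 2252 in old libraries, a ratio of −0.52. Tfap2c, which encodes the transcription factor AP-2 gamma of the epidermis, had 2322, 3048, 2885 and 2999 against 1936, 1805, 1800 and 2125 (ratio −0.55). Kif11, the gene of a mitotic kinesin, had 2948, 3311, 2843 and 2792 against 1786, 1698, 2562 and 2019 (ratio −0.56). The ages did not overlap at any of these, nor at Gm19424 (ratio −0.57) and Tmem43 (−0.61), the gene of a nuclear membrane protein. With equal totals the 5 ratios lay between −0.10 and −0.01.

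Peaks of both histone marks were more frequent at these promoters than at other listed peaks. An H3K4me3 peak overlapped 481 (69.1%) of them by at least 1 base and an H3K27me3 peak 265 (38.1%). Both marks were present at 186 (26.7%), in 178 genes, H3K4me3 alone at 295 (42.4%), H3K27me3 alone at 79 (11.4%) and neither at 136 (19.5%). Of the 42 promoter peaks with more counts in old cells, 16 (38.1%) overlapped H3K4me3, 6 (14.3%) H3K27me3 and 2 (4.76%) both. The difference between these sets of promoter peaks was not tested, and the second set is small. Outside promoters, of the 6049 listed peaks with fewer counts, 10.2% overlapped H3K4me3, 5.47% H3K27me3 and 1.07% both. Merged ChIP-seq peaks pool the samples of both ages, and peaks of both marks at one promoter do not show that both sit on the same DNA molecule.

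**Figure D2:**
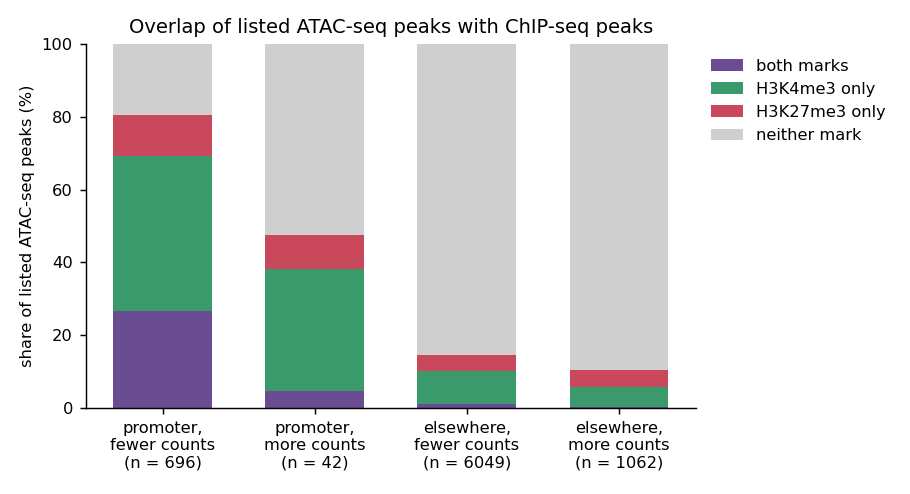
Share of listed ATAC-seq peaks (y axis, %) that overlap H3K4me3 and H3K27me3 peaks, by annotation and direction (x axis). Both marks were present at 26.7% of the promoter peaks with fewer counts and at 4.76% of those with more counts.

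H3K27me3 was more frequent at these H3K4me3 promoters than at H3K4me3 promoters in general. Of 478 H3K4me3 peaks at the ATAC-seq peaks, 223 (46.7%) overlapped an H3K27me3 peak, against 2046 of all 13505 H3K4me3 promoter peaks (15.1%). The H3K4me3 peaks at the ATAC-seq peaks were not wider than promoter peaks in general, with a median of 3283 bases against 3725, and their young level was lower, with a median of 10.1 against 10.8 (log2 of normalized reads). The size of the ATAC-seq drop differed little between the classes. Its median log2 ratio was −0.64 with both marks, −0.60 with H3K4me3 alone, −0.68 with H3K27me3 alone and −0.65 with neither. The ages were apart in 97 peaks with both marks (52.2%), 169 with H3K4me3 alone (57.3%), 30 with H3K27me3 alone (38.0%) and 55 with neither (40.4%). The classes with the smaller shares also had fewer counts, with medians over young means of 213 for H3K27me3 alone and 267 for neither, against 330 for both marks and 399 for H3K4me3 alone. The part of that difference in the shares was not tested.

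H3K4me3 was lower in old cells at nearly all of these promoters, as it was at promoters in general. In the authors' deposited table, with a comparison of 2 young and 2 old samples, 465 of the 478 H3K4me3 peaks (97.3%) were lower in old cells at an FDR under 0.05 and 0 were higher; of all promoter peaks 94.3% were lower and 0.0370% higher. The median log2 change from the authors' deposited table was −1.50 at the ATAC-seq peaks, against −1.42 over all promoter peaks. It was −1.71 where the ATAC-seq peak overlapped H3K27me3 too and −1.42 where the ATAC-seq peak overlapped H3K4me3 alone. With a change so widely shared, a lower level at a single promoter says little about that promoter.

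The smallest H3K4me3 FDRs among promoters with both marks were at Sox21, the RIKEN gene 2610307P16Rik, Tfap2c, Lamb1, Igsf9b and Mmp23. Sox21 had 2030, 2130, 2126 and 1938 ATAC-seq counts in young and 1379, 1081, 1289 and 1133 in old libraries, at chromosome 14, 118236201 to 118237650. Its ages were apart in the unscaled counts, with a ratio of −0.75, but overlapped with equal totals (ratio −0.24). The H3K4me3 change was −2.52 in the authors' deposited table (FDR 6.83e-14). Lamb1, which encodes a laminin chain of basement membranes, had 341, 299, 209 and 279 counts against 232, 193, 155 and 116, and young replicate 3 lay below old replicate 1. Its H3K4me3 change was −2.56 in the authors' deposited table (FDR 5.12e-11). Igsf9b, the gene of a synaptic adhesion protein, had 1391, 1157, 1189 and 1368 against 925, 807, 921 and 788, with no overlap. Its H3K4me3 change was −2.51 (FDR 8.4e-09, authors' deposited table). The H3K27me3 changes at Sox21 (−0.20, FDR 0.456), Lamb1 (−0.63, FDR 0.059) and Igsf9b (−0.53, FDR 0.0776) did not pass the threshold in the authors' deposited table, nor did the positive ones at 2610307P16Rik (0.58, FDR 0.63) and Tfap2c (1.00, FDR 0.193). H3K27me3 was lower at Mmp23 (−0.65, FDR 0.0259, authors' deposited table).

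Where the ATAC-seq peak overlapped no H3K27me3 peak, the smallest H3K4me3 FDRs were at Peg3, Dnajb5, Stxbp6, Ccdc88c, Fgfr4 and Bmp7. Peg3, the paternally expressed gene of a zinc finger factor, had 842, 1264, 848 and 810 ATAC-seq counts in young and 673, 410, 508 and 385 in old libraries (ratio −0.93, and −0.43 with equal totals). All old libraries were below the young ones, of which replicate 2 was the highest. The authors' deposited table gives an H3K4me3 change of −2.64 there (FDR 6.83e-14). Fgfr4, a receptor for fibroblast growth factors, had 238, 232, 280 and 210 against 158, 148, 167 and 169 (ratio −0.58), with an H3K4me3 change of −2.66 (FDR 1.3e-08, authors' deposited table). Bmp7, a bone morphogenetic protein gene, had 733, 788, 659 and 833 against 604, 508, 422 and 583 (ratio −0.51), with −1.86 for H3K4me3 (FDR 1.69e-08, authors' deposited table). The ages did not overlap at either gene, but with equal totals the ratio of Bmp7 was 0.02.

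H3K27me3 was lower in old cells at some of these promoters and seldom higher. In the authors' deposited table, which compares 3 young with 3 old samples, 65 of the 258 H3K27me3 peaks (25.2%) were lower at an FDR under 0.05 and 3 (1.16%) were higher. Over all H3K27me3 promoter peaks 9.19% were lower and 3.14% higher. The median log2 change was −0.29 at the ATAC-seq peaks and −0.05 over all promoter peaks in the authors' deposited table. Lower calls made up 52 of 183 peaks (28.4%) where the ATAC-seq peak overlapped H3K4me3 as well, with 0 higher. They made up 13 of 76 (17.1%) where the ATAC-seq peak overlapped H3K27me3 alone. H3K27me3 peaks at the remaining listed ATAC-seq peaks had a like share, 92 of 373 lower (24.7%) and a median of −0.29, so that share was not particular to these promoters.

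These H3K27me3 domains were wide and strong, with a median width of 8985 bases against 2986 over all H3K27me3 promoter peaks and a median young level of 9.70 against 7.42. In a split by level that was chosen after the values were seen, the highest 25% of promoter levels held 136 of them, of which 42 (30.9%) were lower in the authors' deposited table, against 18.6% of the other promoter peaks at those levels. In the next 25% of levels 20 of 80 were lower, against 10.9%. In the 25% below those 3 of 30 (10.0%) were lower, against 3.99%, and in the lowest 0 of 12, against 1.91%. There were 12 domains that covered more than 1 of the ATAC-seq peaks, so these peaks are not independent.

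**Figure D3:**
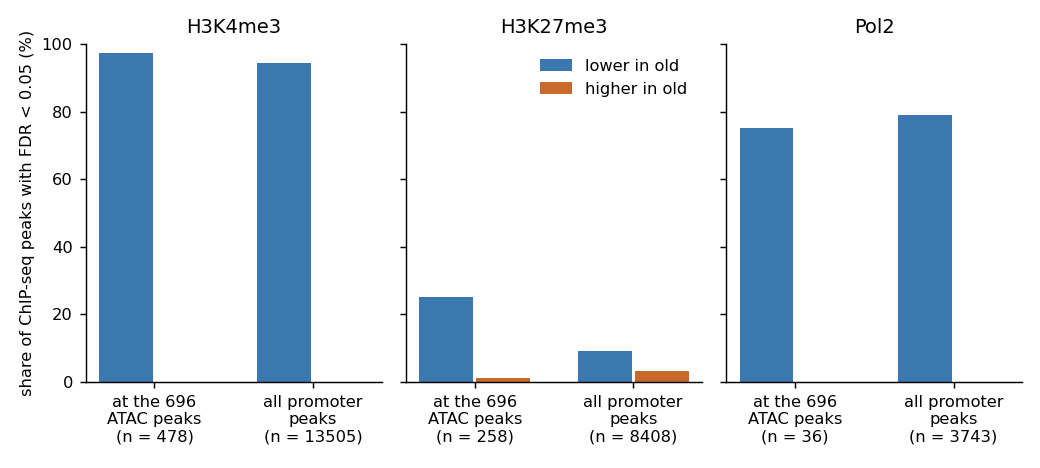
Share of ChIP-seq peaks (y axis, %) that are lower or higher in old cells at an FDR under 0.05 in the authors' deposited tables, for peaks at the 696 ATAC-seq peaks and for all promoter peaks of each table (x axis). For H3K27me3 25.2% were lower at the ATAC-seq peaks against 9.19% at all promoters, while for H3K4me3 and Pol2 most peaks of both sets were lower.

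Among the smallest H3K27me3 FDRs at promoters with both marks were those at Ankrd34a, Sp8, Wnt7b, Foxa1, Runx1t1, Dmrta2 and Gm12409, all lower in old cells. Ankrd34a, which encodes an ankyrin repeat protein, had 196, 262, 229 and 186 ATAC-seq counts in young and 121, 105, 172 and 216 in old libraries. Its ages overlapped, since old replicate 4 exceeded young replicates 1 and 4. The authors' deposited table gives an H3K27me3 change of −1.63 there (FDR 3.99e-14). Sp8 had 334, 556, 430 and 360 against 277, 260, 243 and 257, with no overlap and old libraries close together. Its change in H3K27me3 was −0.76 (FDR 2.15e-09, authors' deposited table). Wnt7b, a Wnt ligand gene, had 258, 258, 185 and 200 against 127, 233, 71 and 145, with old replicate 2 among the young values. H3K27me3 changed by −1.62 there (FDR 1.18e-06, authors' deposited table). Runx1t1, a gene of a corepressor, had 60, 110, 77 and 123 against 70, 18, 50 and 44 (ratio −1.02), with old replicate 1 above young replicate 1. Its H3K27me3 change was −1.17 (FDR 5.42e-06, authors' deposited table). Dmrta2, a transcription factor gene of brain development, had 522, 625, 434 and 656 against 458, 364, 442 and 312, and its ages overlapped at young replicate 3. The change in H3K27me3 was −0.55 (FDR 1.72e-05, authors' deposited table). Gm12409 had the largest change in the authors' deposited table of these 7, −3.43 (FDR 1.84e-05), from a low young level of 6.90. With equal totals the ATAC-seq ratios of 3 of these genes, Ankrd34a, Dmrta2 and Gm12409, lay just above 0, between 0.01 and 0.04.

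The 3 H3K27me3 peaks that were higher in old cells lay at ATAC-seq peaks that overlapped no H3K4me3 peak. They were at Rgs14, a regulator of G protein signalling (0.71, FDR 3.68e-06), Mirt1 (0.46, FDR 0.0488) and Scamp5, of secretory vesicles (3.38, FDR 0.00749), in the authors' deposited table. The Rgs14 promoter had 315, 381, 333 and 396 ATAC-seq counts in young and 200, 191, 208 and 124 in old libraries, and its ages stayed apart with equal totals.

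**Figure D4:**
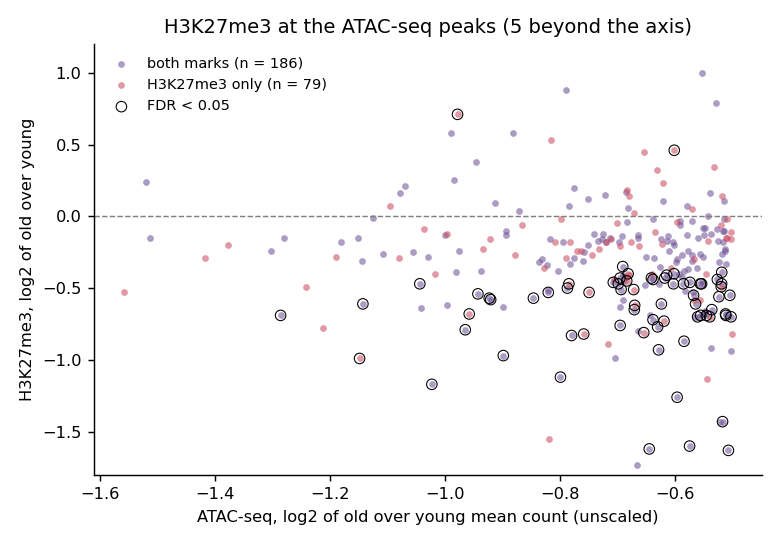
Log2 change in H3K27me3 from the authors' deposited table (y axis) against the unscaled log2 ratio of ATAC-seq means (x axis) at the 265 peaks that overlap an H3K27me3 peak, coloured by the presence of H3K4me3; circles mark an FDR under 0.05, and the title gives the number of peaks beyond the axis. Most points lie below 0 for H3K27me3, at large and small ATAC-seq ratios alike.

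Pol2 peaks were few at these promoters. They overlapped 36 of the 696 (5.17%), of which 32 had H3K4me3 alone, 4 neither mark and 0 H3K27me3. In the authors' deposited table (2 young and 2 old samples) 27 of the 36 (75.0%) were lower in old cells and 0 higher, against 79.1% lower and 0.00% higher among all Pol2 promoter peaks. All 36 had a negative log2 change, with a median of −2.02 against −2.28 over all Pol2 promoter peaks (authors' deposited table). The smallest FDRs were at Prpf38b, a splicing factor gene (−3.46, FDR 0.000132), Tmem43 (−2.88, FDR 0.000252), Slc39a1, a zinc transporter gene (−3.51, FDR 0.000263), Bcl2l13, of the BCL2 family (−2.96, FDR 0.000526), and Ctdp1, a phosphatase of the Pol2 tail (−2.62, FDR 0.000718), in the authors' deposited table. Prpf38b had 191, 292, 143 and 302 ATAC-seq counts in young and 209, 174, 143 and 99 in old libraries, which overlapped. Tmem43 had 2501, 2896, 2591 and 2845 against 2134, 1862, 1686 and 1420, which did not.

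The mRNA of few of these genes was listed, and among them higher levels in old cells outnumbered lower ones. The authors' deposited RNA table (3 samples per age) lists 597 genes with an adjusted p up to 0.1, and 24 of the 672 genes were among them, 19 higher and 5 lower. At an adjusted p under 0.05, 15 were higher and 2 lower, whereas 227 of all listed genes (38.0%) were higher and 112 (18.8%) lower. Of all listed genes 60.5% were higher and 39.5% lower, against 79.2% higher among these 24, a difference that was not tested. The directions rest on the header of the RNA table, which names the change as old against young. By class, 17 of the 24 genes had H3K4me3 alone at the ATAC-seq peak, 6 both marks, 1 neither and 0 H3K27me3 alone.

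Sox21 and Peg3 had the highest mRNA changes of these genes, with log2 changes of 1.38 for Peg3 (SE 0.13) and 1.22 for Sox21 (SE 0.17) and adjusted p listed as 0 in the authors' deposited table. Their promoters had fewer ATAC-seq counts and less H3K4me3 in old cells, as described above. Slitrk6, which encodes a neuronal membrane protein, had 549, 358, 634 and 756 ATAC-seq counts in young and 467, 323, 298 and 311 in old libraries, with old replicate 1 above young replicate 2. Its mRNA change was 1.16 (SE 0.18, adjusted p 5.6e-07, authors' deposited table). Nptx1, a secreted pentraxin gene, had 272, 497, 505 and 453 against 376, 271, 248 and 268, with overlap, and an mRNA change of 1.07 (SE 0.19, adjusted p 2.46e-05, authors' deposited table). Nrcam, a cell adhesion gene, had 1043, 1002, 797 and 998 against 628, 709, 768 and 504, without overlap (ratio −0.56, and −0.04 with equal totals), and 0.89 for mRNA (SE 0.16, adjusted p 1.35e-05, authors' deposited table). Psat1, an enzyme of serine synthesis, had 468, 496, 329 and 490 against 187, 285, 202 and 241, without overlap (ratio −0.96, and −0.43 with equal totals). The mRNA change of Psat1 was 0.67 (SE 0.19, adjusted p 0.0273, authors' deposited table). Igsf9b (1.07), Prkar2b (0.79), Kpna2 (0.78) and Rnf182 (0.73) were called higher too, as were Bcl10 (0.56), Ccdc88c (0.51), Serpinb5 (0.49) and Fgfr2 (0.45), all in the authors' deposited table.

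Skint3 and Smoc2 were the genes called lower. Skint3 had 97, 86, 70 and 132 ATAC-seq counts in young and 45, 18, 120 and 40 in old libraries, where old replicate 3 lay among the young values. Its mRNA change was −0.99 (SE 0.20, adjusted p 0.000287, authors' deposited table). Smoc2, of the basement membrane, had 144, 199, 142 and 167 against 70, 160, 87 and 72, with old replicate 2 among the young values, and −0.52 for mRNA (adjusted p 0.0306, authors' deposited table).

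**Figure D5:**
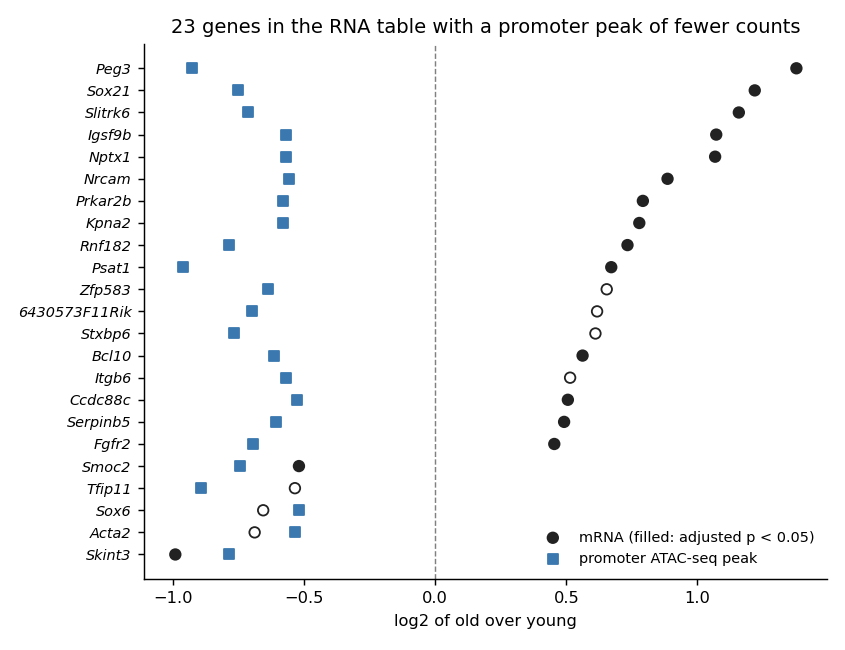
Log2 change of old over young (x axis) for mRNA in the authors' deposited table (circles, filled for an adjusted p under 0.05) and for the promoter ATAC-seq peak (squares, unscaled means) of 23 of the 24 genes found in both (y axis). The ATAC-seq ratio is negative for all genes drawn by the rule that chose the peaks, while mRNA was higher for 18 of them and lower for 5.

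Hox and other homeobox genes, which pattern the embryo, had 11 of the 70 listed ATAC-seq peaks of their list among these promoters (15.7%), against 8.87% of all listed peaks, a difference that was not tested. The 11 peaks were at Alx1, En1, En2, Gbx1, Hoxc4, Isl1, Lhx6, Lhx9, Pbx2, Prox1 and Tlx3, with a median ATAC-seq ratio of −0.69. They had 9 H3K27me3 peaks, of which 8 (88.9%) were lower in old cells and 0 higher in the authors' deposited table, against 25.2% lower at all of the 696 peaks and 9.19% at all H3K27me3 promoter peaks. Lhx9, a factor of gonad and brain development, had 352, 343, 328 and 522 counts in young and 135, 245, 182 and 233 in old libraries, without overlap (ratio −0.96, and −0.41 with equal totals), and its H3K27me3 change was −0.68 (authors' deposited table). En2, of the engrailed pair, had 466, 629, 580 and 544 against 281, 453, 337 and 354, without overlap (ratio −0.64, and −0.11 with equal totals), and −0.44 for H3K27me3 (FDR 0.0169, authors' deposited table). Gbx1, the exception among the 9, had 725, 878, 596 and 653 against 481, 378, 474 and 578 and −0.24 for H3K27me3 (FDR 0.21, authors' deposited table).

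Other developmental transcription factors had 12 of the 130 listed peaks of their list (9.23%), close to the share of all listed peaks. The 11 genes included Foxa1, Foxe1, Foxe3, Foxl2, Olig1, Sox5, Sox6, Sox21, Tcf15 and Tfap2c. Both marks were present at 9 of the 12 peaks, and 6 of 10 H3K27me3 peaks (60.0%) were lower and 0 higher in the authors' deposited table, beside the 25.2% and 9.19% given above. Sox6 had 731, 808, 820 and 640 counts in young and 752, 300, 637 and 403 in old libraries, with old replicate 1 among the young values. H3K27me3 was lower at Sox6 (−0.47, FDR 0.00824, authors' deposited table), and its mRNA change of −0.66 did not pass the threshold in the authors' deposited table. The earlier results of these data already showed H3K27me3 to be lower at developmental genes, so these counts are no independent support for it.

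Signalling genes differed by pathway, with 8 of 52 listed peaks (15.4%) for the Wnt list, 4 of 63 (6.35%) for the BMP and TGF-β list and 5 of 58 (8.62%) for the Notch, Hedgehog and FGF list, beside 8.87% of all listed peaks. These differences were not tested. Among Wnt ligands, Wnt2b, Wnt7a and Wnt7b had such peaks, with Rspo3 and Sfrp2, secreted modulators of Wnt signalling, Dvl1, which relays the signal in the cell, and Lef1, the transcription factor that answers it. Of their 8 peaks 7 had both marks, and 3 of 6 H3K27me3 peaks (50.0%) were lower in the authors' deposited table, against 25.2% at all of the 696 peaks. Lef1 had 962, 1016, 1113 and 1234 counts in young and 787, 795, 578 and 657 in old libraries at its stronger peak, without overlap (ratio −0.62, and −0.10 with equal totals), and H3K27me3 changed by −0.43 (FDR 0.00747, authors' deposited table). In the BMP and TGF-β pathway the ligands Bmp4 and Bmp7, the receptor Bmpr1b and the signal relay Smad3 had a peak each. Bmpr1b had the largest drop of these, with 424, 302, 400 and 526 against 243, 205, 208 and 153 (ratio −1.03, and −0.51 with equal totals), without overlap. Bmp4 had 428, 306, 582 and 235 against 245, 202, 275 and 263, with overlap (ratio −0.66, and −0.39 without young replicate 3), and an H3K27me3 change of −0.81 (FDR 0.000896, authors' deposited table). From the Notch, Hedgehog and FGF list came the ligand Dhh, the receptors Fgfr2 and Fgfr4 and the inhibitor Spry2. That list also held Areg, a ligand of the EGF receptor. Of the H3K27me3 peaks at these genes 0 of 2 were lower (authors' deposited table), too few to set against the 25.2%.

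The basement membrane genes Fras1, Lamb1, Nid2 and Smoc2 had 4 of the 39 listed peaks of their list (10.3%), with ratios between −0.75 and −0.51. Itgb6, an integrin chain, had 2 of the 54 listed peaks of the adhesion and actin list (3.70%). Piezo2, a mechanically gated channel, had 734, 739, 811 and 748 counts in young and 448, 585, 391 and 534 in old libraries, without overlap (ratio −0.63, and −0.10 with equal totals). H3K27me3 changed by −0.77 there (FDR 0.000413, authors' deposited table). Among chromatin genes, Kdm6b, which encodes a demethylase of H3K27, had 154, 246, 240 and 227 against 100, 90, 137 and 145, without overlap (ratio −0.88, and −0.33 with equal totals). Kmt2e (ratio −0.52) and Kmt2a (−0.50), of the family of H3K4 methyltransferases, had small drops that vanished or turned with equal totals, at −0.01 and 0.02. These 3 chromatin genes had 3 of the 9 listed peaks of their list. The zinc finger genes of the Zfp series had 8 of 65 listed peaks (12.3%), 7 of them with H3K4me3 alone, with a median ratio of −0.57. None of the keratin, cell cycle, ribosomal protein, translation factor, respiratory chain and proteasome lists had a gene with such a peak. These lists held 69 listed peaks in all, the proteasome list only 4. Kif11, the mitotic kinesin gene named above, is not on the cell cycle list. The shares in this paragraph stand beside 8.87% of all listed peaks, and their differences were not tested.

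Families picked after the values were seen show the range of the other genes. They were matched by gene symbol, so the opposite-strand genes Kcnmb4os2 and Slc6a19os are counted too, as is Slitrk6 among the guidance genes. Potassium channels and their subunits had 11 of 47 listed peaks (23.4%) and solute carriers 20 of 151 (13.25%). Semaphorins, netrins, slits and related guidance genes had 10 of 78 (12.8%), beside 8.87% of all listed peaks. H3K27me3 was present at 6, 13 and 7 of these peaks in the same order, beside 38.1% of the 696 peaks. Genes of keratinocyte differentiation and Skint genes, such as Crnn, Sprr1a, Csta1 and Spink5, had 16 of 37 listed peaks (43.2%). That share and those of the other families were not tested. Of the 16 peaks 15 had neither mark. Lor, which encodes the cornified envelope protein loricrin, was the exception with both marks. It had 1507, 1861, 1838 and 1380 counts in young and 970, 922, 1062 and 829 in old libraries, without overlap (ratio −0.80, and −0.29 with equal totals), and its H3K27me3 change was −1.12 (FDR 0.0156, authors' deposited table). Sprr1a, a cornified envelope gene without either mark, had 1057, 1156, 1206 and 1188 against 780, 746, 716 and 696 (ratio −0.65). Its ages were apart in these unscaled counts, but it was not among the 20 peaks that stayed apart with equal totals.

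The marks also went with different base composition, as the promoters printed above show in single cases. RefSeq promoter windows of 300 bases (250 before and 50 after the start) overlapped 293 of the 696 peaks, matched by gene symbol. The median number of CG dinucleotides per window was 24 for peaks with both marks, 18 for H3K27me3 alone, 17 for H3K4me3 alone and 5 for neither, against 7 over all 32851 RefSeq promoters. The GC content had medians of 66.3%, 61.7%, 60.3% and 49.3% in the same order, against 52.7%. ATAC-seq peaks are found more often at promoters rich in CG, so the windows of all promoters are no matched comparison.

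Short motifs were searched as exact letters on both strands, and their shares did not all follow this composition. The GC box bound by SP and KLF factors (GGGCGG) was present in 62.1% of the 293 windows against 35.7% of all promoters, with 81.8% for both marks and 31.4% for neither. The TATA box (TATAAA) was in 9.90% against 13.6%, with 23.5% for neither mark. The CCAAT box (CCAAT) was in 36.9% against 37.4%, with 36.4% for both marks and 45.1% for neither. The TEAD motif (CATTCC) was in 14.3% against 14.7%, the RUNX motif (TGTGGT) in 11.3% against 16.8% and the AP-1 motif (TGANTCA) in 9.56% against 7.81%. The E-box (CACGTG) was in 8.19% against 7.15%, the CRE (TGACGTCA) in 4.44% against 1.79% and the ETS motif (CCGGAAG) in 3.41% against 8.86%. The YY1 motif (AAGATGGCG) was in 1 window (0.341%) against 1.40% of all promoters, and the NRF1 palindrome in 0 against 0.971%. No motif contains another of this list, but matches may share bases, and a match describes letters and not a bound factor.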

How the data were processed

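The peaks and gene lists described were chosen with earlier results of these data known. Per the file headers, the deposited ATAC-seq table gives for each peak and library a whole-number count, and for each peak a log2 ratio (young over old, equal to that of the unscaled mean counts) and a −log10 p-value. It lists peaks with a log2 ratio of 0.50 or more in size and a −log10 p-value of 2.00 or more. Its reads were aligned to GRCm38 with BWA 0.7.12 (submitters' processing notes), and the sources used here name neither the peak caller nor the scaling. The ChIP-seq notes name BWA 0.7.15, MACS2 2.2.7.1 and DiffBind 2.14.0. In the deposited ChIP-seq tables each merged peak has a log2 level per age, a log2 difference, which was turned here to old over young, a p-value and an FDR. For RNA the submitters' processing notes name STAR 2.5.2b, GRCm38.p5, featureCounts and DESeq2 1.22.2, and the deposited table holds a mean normalized signal, a log2 change with its SE, a test score, and raw and adjusted p-values.

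Here, ATAC-seq means and ratios were computed without filter or pseudocount, and an overlap with a ChIP-seq peak was 1 base or more. Overlap and scaling scripts were tested on simulated data. Equal totals, edgeR 4.0.16 TMM and DESeq2 1.42.0 size factors, all over listed peaks, were alternative scalings. Calls use the authors' FDR or adjusted p-value at 0.05. Named genes are the 8 with the lowest ratios at a young mean of at least 50, the 5 with most counts, those with the smallest FDR (8 for H3K27me3, 6 for H3K4me3 with and 6 without H3K27me3, 5 for Pol2), up to 12 called in RNA, up to 4 per list and 3 on each side of the rule. A few of these genes are not reported here. Others, such as Zim1, Alx1, Rgs14, Mirt1, Scamp5, Sprr1a, Bcl10, Serpinb5 and Fgfr2, were named after their values were seen. Sequences at peak centres had been planned; RefSeq windows matched by symbol were used instead, and a genome was not used here. The series design names the samples as biological replicates, and the depth of RNA and ChIP-seq libraries is unknown. Python 3.11.15, numpy 2.4.6, pandas 2.3.3, matplotlib 3.10.9 and R 4.3.3 were used.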

Additional observations from a re-analysis of the deposited data

Results flagged for a closer look

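In 6 of 174 groups of 4 libraries at the named peaks (3.45%), 1 library stood far from the other 3; chance flags about 1 in 20 groups. Peg3 had 1264 counts in young replicate 2 against 810 to 848 in the other young libraries. Lhx9 had 522 in young replicate 4 against 328 to 352, and Psat1 had 329 in young replicate 3 against 468 to 496. In old cells, Prkar2b had 682 in replicate 2 against 579 to 595, Slitrk6 had 467 in replicate 1 against 298 to 323, and BC051142, a promoter peak with more counts, had 254 in replicate 1 against 216 to 217.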

How the results depend on the processing

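The size of the set depended on scaling and on the distance that defines a promoter. With TMM 425 promoter peaks were lower in old cells, with DESeq2 size factors 450, and with promoters within 3 kb 1154. The ages were apart in 20 peaks with equal totals, in place of 351. At an FDR of 0.01, 39 H3K27me3 peaks and 15 Pol2 peaks were lower. At an adjusted p of 0.01, 7 genes were higher in RNA and 1 lower, and with all listed genes 5 were lower. The other 68 of 77 alternatives, leaving out each library among them, moved their count by no more than 1.5 times. Leaving out single libraries left 696 peaks each time, of which 374 to 441 had the ages apart and 514 to 608 stayed lower with equal totals. With equal totals 16 of 87 named peaks turned above 0: Ankrd34a 0.043, Arhgap6 0.037, Bmp7 0.021, Camkv 0.031, Ccdc88c 0.0004, Ctdp1 0.0012, Dmrta2 0.013, Dvl1 0.013, Fras1 0.0055, Gm12409 0.012, Kmt2a 0.023, Slc39a1 0.046, Sox5 0.016, Spry2 0.023, Vsnl1 0.026 and Wnt2b 0.0038. No named peak reversed in 696 values with 1 library left out, but 12 values at 9 peaks moved by more than 1.5 times. Without young replicate 2 Fosl1 moved from −0.71 to −0.40 and Kmt2a from −0.50 to −0.33, and without young replicate 3 Bmp4 from −0.66 to −0.39 and the second Foxa1 peak (start 57545601) from −0.55 to −0.35. Without old replicate 2 Skint3 moved from −0.79 to −0.49, Sox6 from −0.52 to −0.33 and Wnt7b from −0.65 to −0.98. Without old replicate 3 the same Foxa1 peak moved to −0.33, Skint3 to −1.49 and Wnt7b to −0.42, and without old replicate 4 Hmga2 moved from −0.51 to −0.33 and Nid2 from −0.51 to −0.24. Paired by replicate number, a choice made after seeing the data, 696 peaks had a negative mean log2 difference (pseudocount 1), and in 522 each old library was below the young library of its number. The numbers did not pair the libraries: deviations of same-numbered libraries from their age's mean correlated at −0.186 to 0.036 across listed peaks, which are not independent. The ChIP-seq and RNA tables used here give no values per sample to pair. The planned whole-peak sequences were not run. Totals over selected peaks do not give depth.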
